A study of Mus musculus with 5 samples.

Results

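The cilium genes described here are the 131 probe sets, of 45037 non-control probe sets on the array, that carry a single gene symbol beginning Dnah, Dnaic, Dnal, Rsph, Cfap, Spag, Tekt, Ift or Bbs followed by a number, or the symbol Foxj1. They represent 83 of the 18193 genes measured, and were taken by name, not by level. Of these, 97 probe sets of 61 genes were read as motile cilium genes, and 34 probe sets of 22 genes (Ift and Bbs) as transport genes. The rule goes by name, and Spag5, Spag7 and Spag9, which encode proteins of the spindle, the nucleus or the cytoplasm, are members although they are not known as axonemal genes. Another 2 probe sets were assigned to several genes, among them a Dnah7 or an Rsph3 copy, and were not used.

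RNA came from newborn ovaries of females at postnatal day 0.5 on a C57/BL6/129SVEV Hybrid background, either LHX8 Null (3 arrays, replicates 1 to 3) or wild type (2 arrays, replicates 2 and 3). Ovaries of both groups were kept in RNAlater and frozen before extraction. For each array 50 ovaries were pooled, which takes at least 25 animals, so a replicate is a pool of whole ovaries and not an animal. Lhx8 encodes a LIM homeodomain protein of oocytes, and the question was how transcript levels change when it is lost. Neither the allele nor the deleted part of the gene is stated in the labels.

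Motile cilia beat through dynein arms carried on doublet microtubules, and their stroke is set by radial spokes and a central pair of microtubules. FOXJ1 and RFX factors switch on the genes of this machinery, which in the female tract serves the multiciliated cells of the oviduct. Nearly all cells can instead form a single immotile primary cilium, a platform for Hedgehog and other signals. Both kinds are built by intraflagellar transport (IFT), in which the IFT-B complex carries cargo towards the tip, IFT-A returns it to the base, and the BBSome escorts membrane proteins.

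The deposited values are linear array signals. Lhx8 read 332.6, 159 and 347.4 in null ovaries against 6450.1 and 5223.1 in wild type ovaries, so it followed the labels; whether its probe set lies in the deleted part was not analysed here. Oocyte markers (9 of 9 measured) were present in wild type ovaries, where their summed signal was 34694 to 44258, against 3298 to 5122 in null ovaries, and the 6 granulosa markers summed to 25198 to 27531 and to 15859 to 18173. Markers of oviduct and mesonephric epithelium (14 measured of 15) summed to 11503 to 13418 in wild type and 35562 to 39688 in null ovaries. The wild type sum was uneven over the list. Mean wild type signals were 2824 for Emx2, 2606 for Krt18, 2014 for Krt8 and 1731 for Krt19, but 128 for Wfdc2, 126 for Pax8 and 78.25 for Ovgp1. Controls differed by group as well: the 18S ribosomal RNA probe sets were 1.96 times and the spiked BioC probe sets 2.15 times as bright on null arrays. Their part in any result below was not tested. In pooled whole ovaries, a change in the number of cells of a type and a change of RNA per cell cannot be told apart.

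The groups were compared probe set by probe set with limma on quantile-normalised log2(signal + 16) values, and a probe set is said to rise or fall where its two-sided p, adjusted by the Benjamini-Hochberg method over all 45037, was below 0.05. Of the motile probe sets, 6 rose and 11 fell (6.19% and 11.3%), beside 10.7% and 10.3% of all probe sets. Of the transport probe sets, 3 rose and 9 fell (8.82% and 26.5%). Taking each gene by its brightest probe set, 4 motile genes rose and 8 fell of 61, and 3 transport genes rose and 4 fell of 22, where 14.0% of all genes rose and 13.6% fell. The median log2 fold change was -0.26 for motile genes, 0.04 for transport genes and -0.02 for all genes. The signals of the groups did not overlap for 43.3% of motile and 73.5% of transport probe sets, beside 50.2% of all. The shares of motile probe sets and genes that rose or fell thus lay near or below those of the whole array. The share of transport probe sets that fell was higher than over the array, and 6 of these 9 belonged to Ift27 and Bbs4, with 3 each. Most transport probe sets were bright, 30 of 34 by the cutoff given below. Of these 30, 12 passed in either direction, beside 37.9% of all probe sets as bright. With each array centred on its median, which moved the median log2 fold change of all probe sets by about -0.13, the motile counts were 5 higher and 16 lower and the transport counts 1 and 11, while over the whole array the share of higher calls moved from 50.8% to 35.0%. The counts moved with some arrays left out, and so did those of the whole array. With all arrays, 4811 of all probe sets rose and 4655 fell. Without null replicate 2, 3 motile probe sets and 1 transport probe set rose, and over the whole array 3222 rose and 3316 fell. Without null replicate 3, 1 transport probe set rose, and over the whole array 3423 rose and 3496 fell. With either wild type replicate left out, 1 wild type array remained. Fewer motile and transport probe sets then passed in each direction, as over the whole array.

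Most motile genes were dim in the newborn ovary, and transport genes were not. A level of 7.37 on the normalised log2 scale, or a signal of about 150, which 40% of genes did not reach on average, served as a brightness cutoff. Of 61 motile genes, 38 (62.3%) were below it in both groups, beside 36.3% of all genes. Above it in both groups were 17, in wild type ovaries only 5 and in null ovaries only 1, Tekt2. All 22 transport genes reached the cutoff in at least 1 group, and 20 did in both. Bright probe sets passed more often: 37.9% of all probe sets that reached the cutoff in a group passed the test, as did 14 of 30 such motile and 12 of 30 such transport probe sets.

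**Figure D1:**
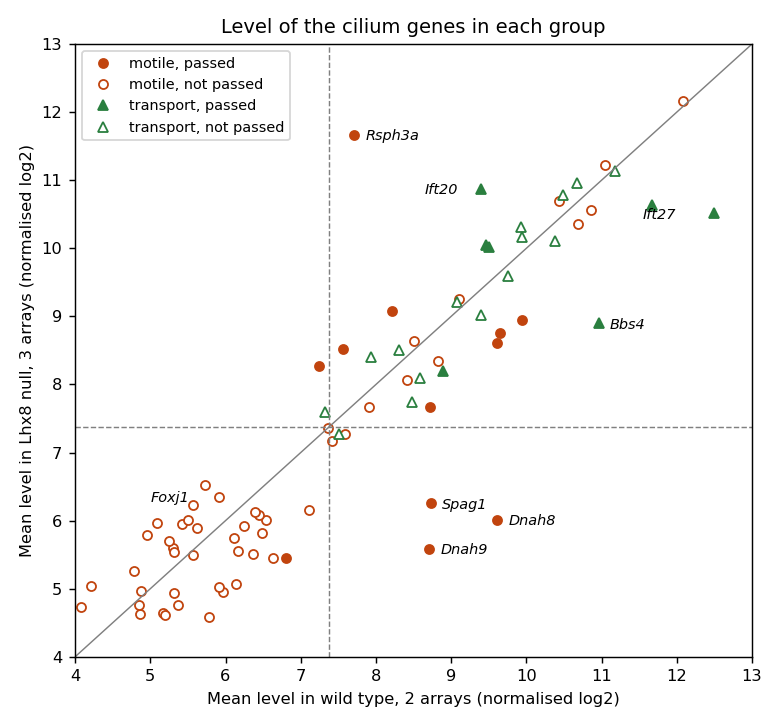
Mean normalised log2 level of each of the 83 genes (brightest probe set) in wild type (x axis, 2 arrays) and Lhx8 null ovaries (y axis, 3 arrays), with the diagonal of equal level and the brightness cutoff of 7.37 (dashed); filled symbols passed the test. Open circles of motile genes crowd the dim corner, where 38 of 61 lie below the cutoff on both axes, while the triangles of transport genes lie above it on at least 1 axis and Rsph3a stands far above the diagonal.

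The regulator of the motile programme, Foxj1, was dim in both groups. On the arrays it read 70.6, 114.1 and 41.8 in null replicates 1, 2 and 3 and 44.0 and 33.7 in wild type replicates 2 and 3. The groups overlapped, and no change was detectable (log2 fold change 0.44, SE 0.44, adjusted p = 0.55). With such dim signals the array sets no close bound on a change of Foxj1.

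Of the dynein arm genes, 3 fell and 1 rose of 14. Dnah8, a heavy chain of the outer arm known from sperm flagella, read 96.1, 59.1 and 23.4 on the null arrays, in the order of replicates 1 to 3 as in all such series below, and 534 and 1119.2 on wild type arrays 2 and 3. Dnah9, an outer arm heavy chain of cilia, had 18.1, 49.6 and 40.2 in the null arrays and 345.2 and 447.6 in the wild type arrays. In both genes each null array was below the cutoff and each wild type array above it. The fall on the log2 scale was -3.60 for Dnah8 (SE 0.47, adjusted p = 0.0013) and -3.13 for Dnah9 (SE 0.39, adjusted p = 0.0012). These sizes depend on the added constant, and with 64 in place of 16 they were -2.86 and -2.27. Each gene has another probe set that stayed at or under 70.2 and 32.2 on every array and did not pass (-1.16 and 0.49).

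The other arm genes that passed did so narrowly. Dnah12, an inner arm heavy chain, had 20.7, 32.4 and 39.5 in null and 76.7 and 93.9 in wild type arrays, below the cutoff throughout. It fell by 1.35 (SE 0.39, adjusted p = 0.041), a call lost without any 1 of the 5 arrays: adjusted p = 0.0624, 0.0928 and 0.0626 without null replicates 1, 2 and 3, and 0.136 and 0.205 without wild type replicates 2 and 3. Dnah1, an inner arm heavy chain, had 288.7, 436.8 and 380.4 in null and 185.8 and 133.5 in wild type arrays. It rose by 0.97 (SE 0.27, adjusted p = 0.038), and the call was lost without null replicate 2 (adjusted p = 0.128) or 3 (0.111), without wild type replicate 2 (0.0947) or 3 (0.235), and with median centring (0.0544). The heavy chain genes Dnah5, Dnah11 and Dnah17 (-1.07 to -0.88), Dnah6 (-0.23), Dnah7a (-0.06) and Dnah2 (0.80, with each null array above each wild type array) and the intermediate chain genes Dnaic1 (-0.38) and Dnaic2 (-0.66) were dim in both groups and did not pass. The light chain genes Dnal1 and Dnal4 were above the cutoff on all arrays, at log2 fold changes of 0.16 and 0.12 that did not pass.

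Of the factors that assemble dynein arms in the cytoplasm, the name rule takes in Spag1, Cfap298 and Cfap300, and these 3 fell. Spag1 read 48.4, 88.6 and 62.3 in null and 390.2 and 410.9 in wild type arrays, and fell by 2.48 in log2 units (SE 0.33, adjusted p = 0.0015). Cfap298 had 442.8, 499.1 and 505.7 in null and 864.8 and 1129.1 in wild type arrays, and Cfap300 had 316.9, 448.1 and 402 against 718.7 and 817.8. No null array reached a wild type array for any of the 3 genes. Cfap298 fell by 1.01 (SE 0.17, adjusted p = 0.0052) and Cfap300 fell by 0.99 (SE 0.21, adjusted p = 0.012). Cfap298 did not pass without wild type replicate 3 (adjusted p = 0.0689), nor Cfap300 without wild type replicate 2 (0.0684) or 3 (0.122). Of the other probe sets of Cfap298, 2 stayed at or under 23.5 and the remaining one had 138.7, 641.1 and 749.1 in null and 984.5 and 1197.6 in wild type arrays, a difference of -1.40 that did not pass (adjusted p = 0.18) and in which null replicate 1 was far below the other null arrays. Other assembly factors, which the name rule leaves out and which are named after their values were seen, were mixed: Lrrc6 fell by 2.41 and Dnaaf5 by 0.74, the latter a call lost with any 1 array left out (adjusted p = 0.0506 to 0.278), while Dnaaf1 (-1.18), Dnaaf2 (-0.51), Zmynd10 (0.06) and Ccdc103 (0.00) did not pass.

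Promoter sequence was read for the members because RFX factors bind X-box motifs before many ciliary genes. RefSeq promoter windows of build GRCm38.p6 were matched by symbol for 70 of the 83 genes, and the 250 bases before the start were searched on both strands. The short motif GTTGCCA, 1 arm of the X-box, was found before 6 member genes (8.57%) and before 4.19% of 27025 genes. The full X-box, searched as GTNNCC followed after any 2 bases by GGNNAC, was found before 9 members (12.9%) and 1.81% of all genes. The forkhead motif GTAAACA, of the kind FOXJ1 binds, was found before 4 members (5.71%) and 3.54% of all genes. The full motif can contain the short one; in the windows of the members the matches did not overlap. A match is a description of letters and not a bound site.

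Of the 6 genes with the short motif, 4 fell and the other 2, Cfap20 and Tekt1, did not pass. Over all member genes 14.5% fell, and over all genes 13.6%. The share that fell among all genes with this motif was not computed, so a link between motif and fall was not tested. The windows of these 4, of which only that of Cfap298 is among the 5 motile genes with the smallest p, the rule for windows to print, and the rest were chosen after their values were seen, are printed 5′ to 3′ on the strand of the gene, ending at the base before its start, with capitals for the short motif on either strand and for the full X-box: Cfap298 at chr16:90934850-90935099, Cfap161 at chr7:83794840-83795089, Cfap300 at chr9:8042876-8043125 and Ift27 at chr15:78174082-78174331, all on the minus strand.
Cfap298: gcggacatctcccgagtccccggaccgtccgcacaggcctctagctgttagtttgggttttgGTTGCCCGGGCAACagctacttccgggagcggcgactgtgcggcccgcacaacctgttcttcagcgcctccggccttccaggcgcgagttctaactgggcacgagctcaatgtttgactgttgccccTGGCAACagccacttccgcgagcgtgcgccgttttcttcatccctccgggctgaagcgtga
Cfap161: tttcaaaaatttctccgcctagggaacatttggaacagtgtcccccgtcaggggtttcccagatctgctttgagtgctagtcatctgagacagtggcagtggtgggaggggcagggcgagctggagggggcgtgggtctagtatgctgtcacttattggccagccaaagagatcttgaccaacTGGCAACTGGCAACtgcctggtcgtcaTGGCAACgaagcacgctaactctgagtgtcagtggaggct
Cfap300: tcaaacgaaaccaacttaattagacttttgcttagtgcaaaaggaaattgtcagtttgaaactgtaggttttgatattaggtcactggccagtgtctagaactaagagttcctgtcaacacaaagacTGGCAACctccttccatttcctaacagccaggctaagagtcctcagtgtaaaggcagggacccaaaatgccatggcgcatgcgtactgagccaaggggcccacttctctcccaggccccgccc
Ift27: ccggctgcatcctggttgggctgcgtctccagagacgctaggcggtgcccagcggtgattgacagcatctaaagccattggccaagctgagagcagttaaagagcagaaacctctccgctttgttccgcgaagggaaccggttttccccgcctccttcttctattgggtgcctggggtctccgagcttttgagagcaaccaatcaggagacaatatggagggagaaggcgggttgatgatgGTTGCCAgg

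Full X-box matches stood before genes that fell and genes that rose. Besides Cfap298, whose window holds the full motif as well, they are shown with 15 bases on either side for Bbs7 (fell, chr3:36613482-36613525, minus strand), Ift57 (rose, chr16:49699192-49699235, plus strand) and Spag5 (rose, chr11:78301390-78301433, plus strand). The other 5 genes with the full motif, Cfap126, Cfap206, Cfap20dc, Ift22 and Tekt4, did not pass, and neither did any gene with the forkhead motif.
Bbs7: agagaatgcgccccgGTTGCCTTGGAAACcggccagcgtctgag
Ift57: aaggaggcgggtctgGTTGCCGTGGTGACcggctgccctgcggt
Spag5: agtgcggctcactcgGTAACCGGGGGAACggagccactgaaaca

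The largest change of any member was a rise of the radial spoke gene Rsph3a. It read 2855.5, 3790.4 and 3008.3 in null and 188.4 and 167.4 in wild type arrays, far apart. The rise was 3.96 in log2 units (SE 0.15, adjusted p = 1.44e-05), or 15.6-fold, and was called without any 1 array, with adjusted p of at most 0.0022. A further probe set assigned to Rsph3a alone stayed at or under 26.5 on every array and did not follow (0.34). Mouse carries a near-identical copy, Rsph3b, and whether this signal includes it was not tested. Of the other spoke genes, Rsph1 (-0.24), Rsph4a (0.84), Rsph6a (0.09), Rsph9 (-0.01) and Rsph14 (-0.33) did not pass, and their signals were at most 172.9 on any array.

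Tektins are filaments of the doublet wall, and 1 of 5 rose. Tekt2 had 363.4, 268.5 and 277.5 in null and 105.7 and 137.7 in wild type arrays and rose by 1.03 (SE 0.24, adjusted p = 0.019). The call was lost without null replicate 3 (adjusted p = 0.0542) and without wild type replicate 2 (0.124) or 3 (0.0648). Tekt1, Tekt3, Tekt4 and Tekt5 were below the cutoff on all arrays, at log2 fold changes of -0.57 to 0.67 that did not pass.

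Among 7 genes of the central pair, Cfap54 fell and the others did not pass. Cfap54 had 486.2, 399.8 and 384.3 in null and 827.5 and 759.3 in wild type arrays and fell by 0.88 (SE 0.16, adjusted p = 0.0065), a call not kept without wild type replicate 2 (adjusted p = 0.0671) or 3 (0.055). Spag6, Spag6l, Spag16 and Spag17, which build projections of the central pair, stayed at or under 62.6 at every probe set. Cfap69 stood near the cutoff at its brightest probe set and did not pass (-0.32), and a dim probe set of it fell by 1.24 (adjusted p = 0.048, and from 0.0736 to 0.209 with any 1 array left out).

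Of the other 20 Cfap genes, Cfap161 fell at its brightest probe set and none rose. Its signals were 187.1, 205.3 and 206.3 in null and 366.3 and 430.6 in wild type arrays, and it fell by 1.05 (SE 0.22, adjusted p = 0.012). It did not pass without wild type replicate 2 (adjusted p = 0.0624) or 3 (0.124). The probe sets of Cfap97 differed: the brightest read 1204.1, 1300.6 and 1335.8 against 1606.4 and 1753, had -0.32 and did not pass (adjusted p = 0.098), while 2 dimmer probe sets fell by 1.42 and 2.05, calls not kept without wild type replicate 2 (0.0742 and 0.101) or 3 (0.0795 and 0.0823). Cfap45, a protein inside the doublet, read 70.6, 62.3 and 50 against 103.5 and 113.4 (-0.94, adjusted p = 0.084). Cfap157 read 4.9, 23 and 2.4 against 34.3 and 34 (-1.20, adjusted p = 0.069). In both, null arrays lay below wild type arrays in a dim range, and neither passed. Cfap20, a protein of the doublet inner junction and the brightest of these genes, had 0.17 and did not pass either.

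Of the 5 other Spag genes, 1 rose at its brightest probe set. Spag5, which encodes the mitotic spindle protein astrin, had 556, 554.2 and 471.8 in null and 237.6 and 301.7 in wild type arrays and rose by 0.85 (SE 0.19, adjusted p = 0.014). The call was lost without null replicate 2 (adjusted p = 0.0587) or wild type replicate 2 (0.109). Another Spag5 probe set rose by 1.06, a call lost without null replicate 2 (0.0656) or wild type replicates 2 (0.0797) or 3 (0.0908), and the third had 0.07. Spag9, a scaffold protein of JNK signalling and the brightest motile-list gene, had 4130.5 to 5170.1 in null and 4313.3 to 4429.7 in wild type arrays, with no detectable change (0.08). A dim Spag9 probe set, at most 98.5 on any array, rose by 2.00 (adjusted p = 0.011, and 0.081 without either wild type replicate).

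**Figure D2:**
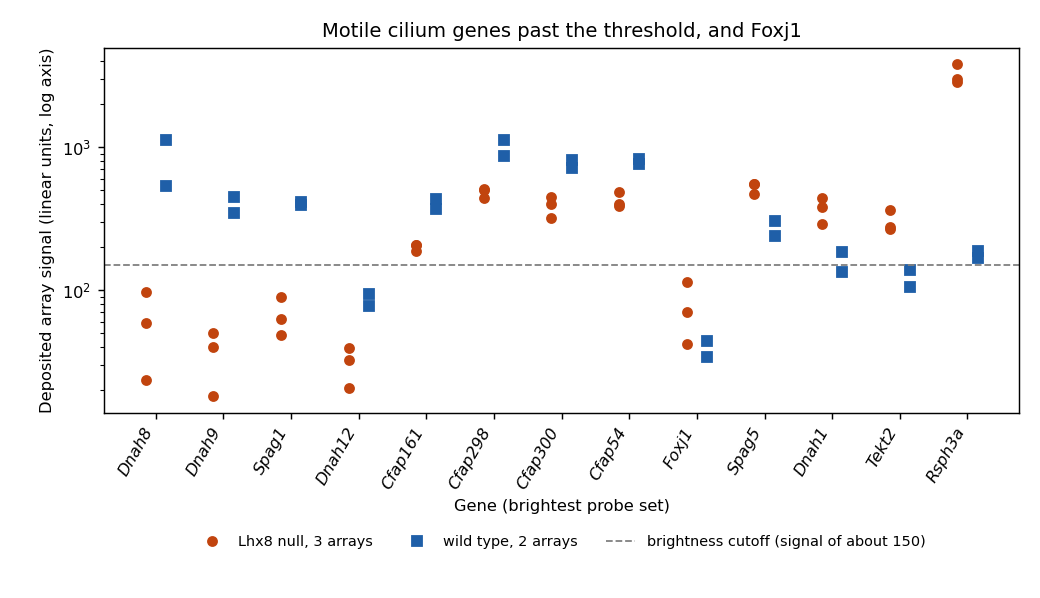
Deposited signal (log axis) of the 12 motile genes past the threshold at their brightest probe set, and of Foxj1, on each array, ordered by log2 fold change; circles are the 3 null arrays, squares the 2 wild type arrays and the dashed line the brightness cutoff. Dnah8, Dnah9 and Spag1 cross the cutoff from wild type to null, Rsph3a rises from about the cutoff to 2855.5 to 3790.4, and Foxj1 and Dnah12 stay below it.

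Transport genes were well expressed, and the largest changes were seen in single subunits. Of the 11 IFT-B genes named Ift, 2 rose and 1 fell. Ift27, a small GTPase of the complex that acts in BBSome exit from cilia, read 1261.4, 1574.4 and 1451.6 in null and 5942.1 and 5387.5 in wild type arrays. It fell by 1.98 (SE 0.13, adjusted p = 8.94e-05), or 3.95-fold, and was called with every array left out in turn. Its other 2 probe sets fell by 2.49 and 1.58, and it was the only member gene with several probe sets, of 32, for which all of them passed; the dimmest lost its call without wild type replicate 3 (adjusted p = 0.0525).

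Ift20 moved the other way. This subunit, which also resides at the Golgi, had 1974.1, 1831.2 and 1696.1 in null and 670.2 and 639.8 in wild type arrays and rose by 1.49 (SE 0.13, adjusted p = 0.00021), or 2.80-fold, a call kept with every array left out in turn. Ift57 had 913.9, 1130.6 and 1068.6 against 675.6 and 712.8 and rose by 0.58 (SE 0.15, adjusted p = 0.027). The call for Ift57 was lost with median centring (0.32, adjusted p = 0.256), without null replicate 2 (0.0943) or 3 (0.0862) and without wild type replicate 2 (0.15) or 3 (0.108). The other 8, Ift22, Ift46, Ift52, Ift74, Ift80, Ift81, Ift88 and Ift172, had log2 fold changes of -0.37 to 0.30 at their brightest probe sets and did not pass. Ift81 came nearest, with 1768.8, 1746 and 1637.3 against 1500 and 1431.6 (0.30, adjusted p = 0.104, and -0.020 with median centring). For Ift80 a dimmer probe set fell by 0.85, a call not kept without wild type replicate 2 (adjusted p = 0.0703) or 3 (0.0663), while its brightest had -0.17.

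Of the 3 IFT-A genes named Ift, 1 fell and 1 rose. Ift43, a small subunit, had 1538.2, 1582.6 and 1534.5 in null and 2959.9 and 3685.7 in wild type arrays and fell by 1.02 (SE 0.12, adjusted p = 0.001), a call kept with every array left out in turn. Ift140, a core subunit, had 1014.9, 1054.6 and 964.2 against 792.7 and 634.4 and rose by 0.52 (SE 0.14, adjusted p = 0.033). That call was lost with median centring (0.26, adjusted p = 0.327), without null replicate 2 (0.109) or 3 (0.0747) and without wild type replicate 2 (0.059) or 3 (0.209). Ift122, another core subunit, read 1190.4, 1258.4 and 1260.1 against 1026.4 and 929.5. Its null arrays were above its wild type arrays, but 0.38 did not pass (adjusted p = 0.062). A further Ift122 probe set, at 417.4 to 505.7 over all arrays, had -0.13 and did not pass. The IFT-A genes of other names, Wdr19 (0.03), Wdr35 (0.43) and Ttc21b (0.37), did not pass.

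Of the 6 BBSome genes named Bbs, 2 fell and none rose. Bbs4, whose protein also binds centriolar satellites, had 511.7, 413.5 and 471.8 in null and 1835.5 and 2246.7 in wild type arrays, a gap wider than the spread within either group. It fell by 2.07 (SE 0.15, adjusted p = 0.00013), or 4.18-fold, and by 2.17 and 2.24 at 2 further probe sets, each called with every array left out in turn; its dimmest probe set, at most 123.3 on any array, had -0.71 and did not pass. Bbs7 had 262.6, 308.9 and 292.2 against 453.5 and 452 and fell by 0.70 (SE 0.19, adjusted p = 0.037). Its call was lost without null replicate 2 (adjusted p = 0.0639) or 3 (0.0791) and without wild type replicate 2 (0.161) or 3 (0.189). Bbs5 read 217.3, 182 and 228 against 288.3 and 374.7, a difference of -0.74 (adjusted p = 0.055). Bbs9 (-0.49), Bbs2 (0.19) and Bbs1 (0.28) were closer to 0, and none of these 4 passed. The chaperonin-like genes Bbs10 and Bbs12, which act in BBSome assembly, had -0.23 and 0.47 and did not pass. Ttc8, a BBSome subunit that the name rule leaves out and that is named after its value was seen, read 884.4, 1155.2 and 1072.2 against 588.9 and 658.3 and rose by 0.73 (adjusted p = 0.016). It did not pass without null replicate 2 (0.0613) or 3 (0.0580) or without wild type replicate 2 (0.119) or 3 (0.0708).

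**Figure D3:**
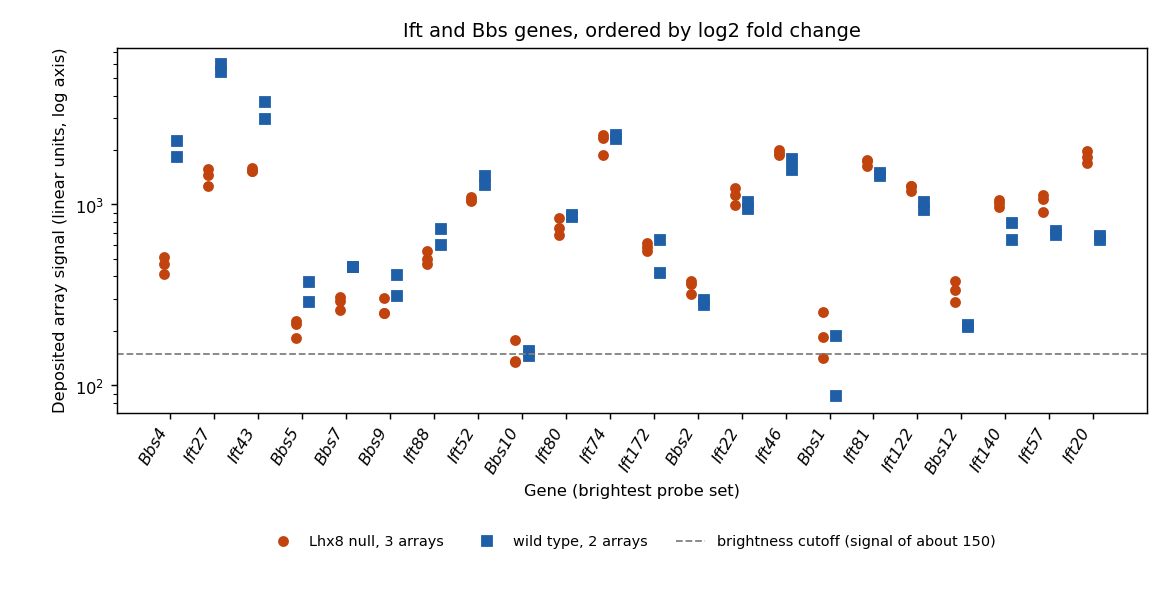
Deposited signal (log axis) of the 22 Ift and Bbs genes on each array at their brightest probe set, ordered by log2 fold change; circles are the 3 null arrays, squares the 2 wild type arrays and the dashed line the brightness cutoff. Bbs4, Ift27 and Ift43 at the left and Ift20 at the right have clearly separated groups, while the groups of most genes between them lie closer together.

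**Figure D4:**
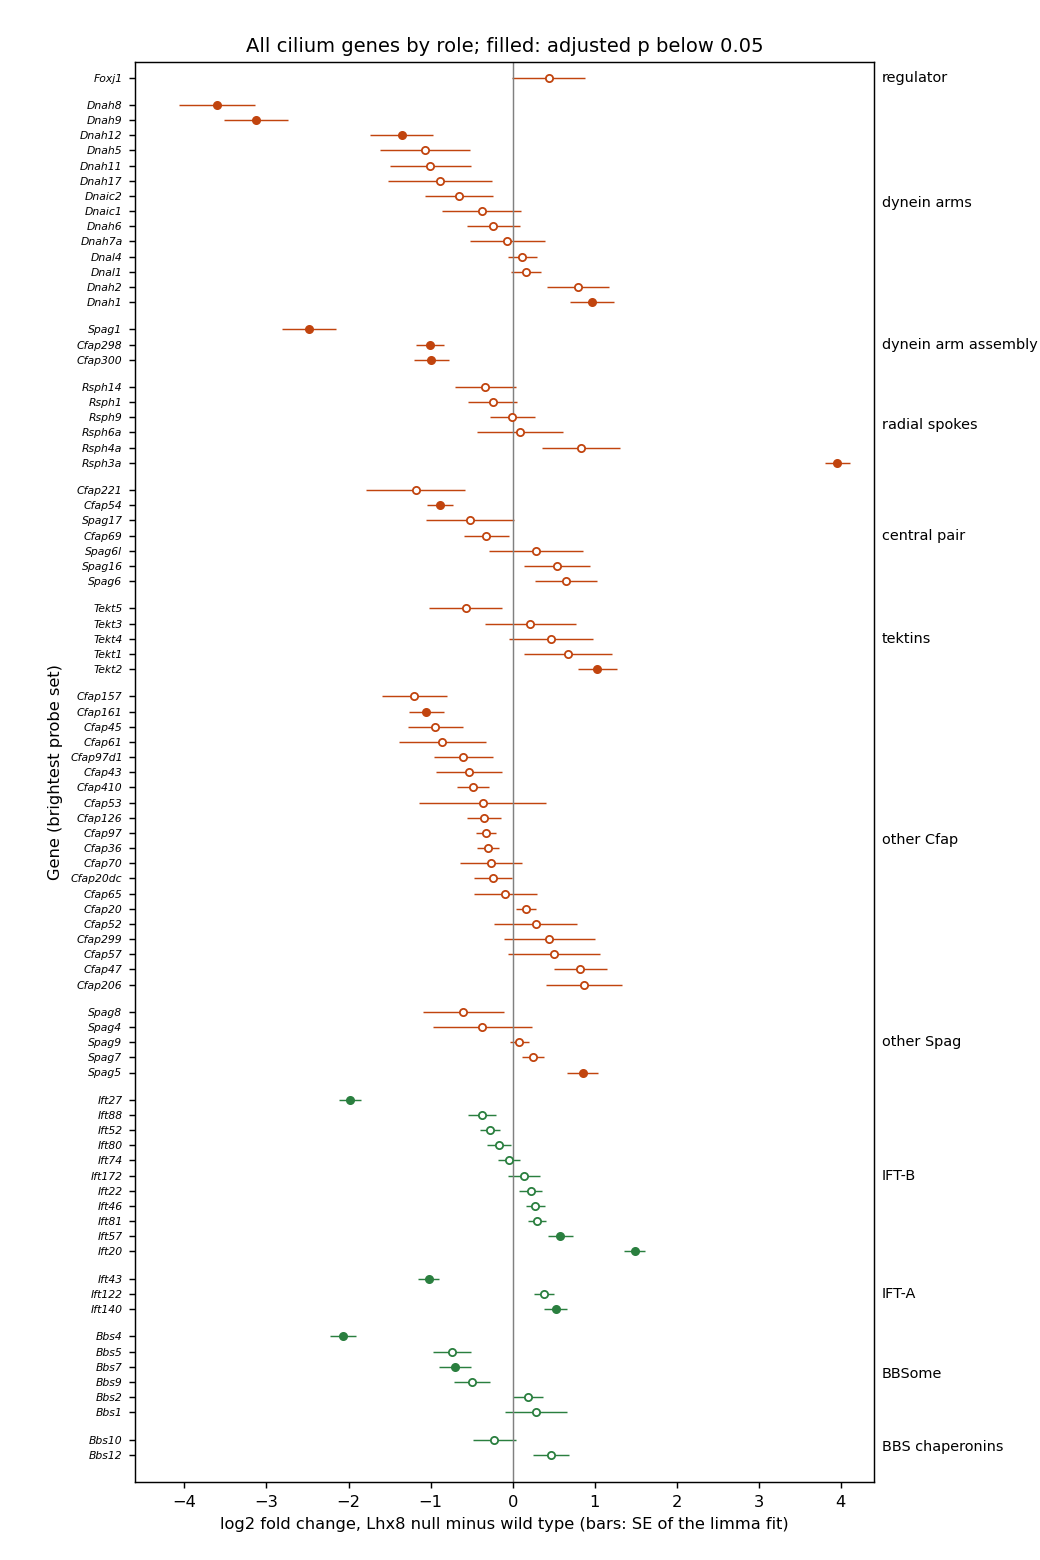
Log2 fold change, null minus wild type, with the SE of the fit, of all 83 genes at their brightest probe set, by role; filled symbols passed at an adjusted p below 0.05. Of the 14 dynein arm genes 3 filled points lie left of 0 and 1 right, all 3 assembly factors lie left, and the IFT-B, IFT-A and BBSome points spread to both sides with 1 or 2 far from 0.

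Several probe sets of a gene never passed in opposite directions. Of the 32 member genes with more than 1 probe set, all passed for 1, some for 14 and none for 17, and the other 51 genes had 1. Beside those described, Dnah1, Cfap54, Ift57 and Bbs7 each have a further probe set that read at most 63.5 and did not pass. That of Ift57 had the opposite sign to its brightest, at -1.37 (adjusted p = 0.078), with each null array below each wild type array. In the fit to 1 probe set a gene after leaving out the dimmest 40% of genes, 41 of the 83 members were kept, where 25.5% of the genes tested rose and 22.3% fell. Among those, 4 motile genes rose and 5 fell, and 4 transport genes rose and 5 fell. Ift122 and Bbs5 passed there and not over the whole table (adjusted p = 0.038 and 0.019), and Dnah9, Dnah12 and Spag1 were too dim on average to be tested. Of the 19 member genes called over the whole table, 8 kept the call with each array left out in turn: Rsph3a, Dnah8, Dnah9, Spag1, Ift20, Ift27, Ift43 and Bbs4. A fit without a trend of variance with level ended the calls of Cfap300 (adjusted p = 0.0562), Spag5 (0.05004), Dnah1 (0.0841), Ift57 (0.109), Ift140 (0.125) and Bbs7 (0.0749), and the deposited scaling and a constant of 1 ended that of Dnah12 (0.0740 and 0.0624). Genes not called over the whole table that passed under an alternative included Bbs5 and the brightest probe set of Cfap97 with median centring (0.0273, and 0.0173 at -0.63), and Cfap45 without the variance trend (0.0325) and with the dimmest 40% of probe sets left out (0.0373). Bbs5 also passed with those probe sets left out (0.0286), without _x_at and _s_at probe sets (0.0486) and with a robust variance (0.0446).

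Other genes of the motile programme, from a list of 80 of which 68 were measured, held 13 lower and 4 higher (19.1% and 5.88%, beside 13.6% and 14.0% of all genes) and a median of -0.23. Ccno, a cyclin-like gene needed for centriole amplification in multiciliated cells and also known from oocytes, had 93.8, 116.9 and 102 in null and 3037.8 and 2458.8 in wild type arrays and fell by 4.58 (SE 0.21, adjusted p = 3.11e-05). The cell cycle factor gene E2f5, which acts with multicilin, had 857.3, 985.2 and 1142.2 against 5581.1 and 6262.3 and fell by 2.56 (SE 0.15). The kinesin gene Kif9 had 104.6, 91 and 92.8 against 710.3 and 996.5 and fell by 3.02 (SE 0.24). No null array came near a wild type array in these 3 genes. Morn5 had 107.8, 48.1 and 135.8 against 629.5 and 570.8 and fell by 2.64, and Morn2 had 577.8, 466.9 and 601.8 against 1191.2 and 1133.7 and fell by 1.05. Tppp3, a tubulin-binding protein, had 1164, 863.5 and 837.1 in null and 114.3 and 127.5 in wild type arrays and rose by 2.69 (SE 0.20, adjusted p = 0.00012). These 6 genes kept their calls with each array left out in turn. The counts of the list did not stay the same. Without null replicate 3, 2 were higher, and fewer probe sets passed over the whole array as well. With either wild type replicate left out, fewer list genes were higher and fewer were lower, as over the whole array.

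Of the transcription factors on that list, Rfx3 had 571.5, 400 and 435.1 in null and 258.7 and 201.9 in wild type arrays and rose by 0.88 (SE 0.21, adjusted p = 0.021), a call lost without null replicate 3 (adjusted p = 0.0556) and without wild type replicate 2 (0.0697) or 3 (0.155) and without the variance trend (0.0613). Rfx2 read 185.2, 86 and 148.8 against 120 and 120.8, overlapping; it had -0.09 and did not pass, and its sign turned with the deposited scaling (0.14) and without null replicate 2 (0.16). Mcidas and Gmnc, the upstream switches of the multiciliated state, were among the 12 listed genes for which no probe set carried that single symbol, so they were not measured here.

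Other primary cilium genes, from a list of 60 of which 52 were measured, were bright (48 above the cutoff in both groups). Of these 52, 6 were higher and 3 lower (11.5% and 5.77%), beside 14.0% and 13.6% of all genes. Both shares thus lay below those of all genes. Ofd1, a centriole protein, had 599.6, 915.9 and 1113.6 in null and 3843.8 and 4505.9 in wild type arrays and fell by 2.25 (SE 0.25, adjusted p = 0.00065). Kif3a, a motor subunit of anterograde IFT, had 1035.5, 1017.6 and 1087.7 against 1876.1 and 2032.9 and fell by 0.83 (SE 0.12, adjusted p = 0.002). Both were called with every array left out in turn. The ciliary Hedgehog signalling genes Evc and Evc2 rose by 1.15 and 0.87, Pkd1, the polycystin-1 gene, by 0.96 and the transition zone gene Ahi1 by 1.00. In null and wild type arrays Evc spanned 458.7 to 684.8 and 203.6 to 247.2, Evc2 615.2 to 753.3 and 339.8 to 368.9, Pkd1 463.4 to 618.7 and 235.7 to 271.3, and Ahi1 387.1 to 543 and 185.7 to 208.2, with no overlap. Each of these 4 lost its call without wild type replicate 3 (adjusted p = 0.071, 0.0651, 0.0773 and 0.0731), and Ahi1 also without null replicate 3 (0.0531) or wild type replicate 2 (0.0993). The counts were 4 higher and 6 lower with median centring. Without null replicate 3, 3 were higher, and fewer probe sets passed over the whole array as well. With either wild type replicate left out, fewer list genes were higher, as over the whole array.

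**Figure D5:**
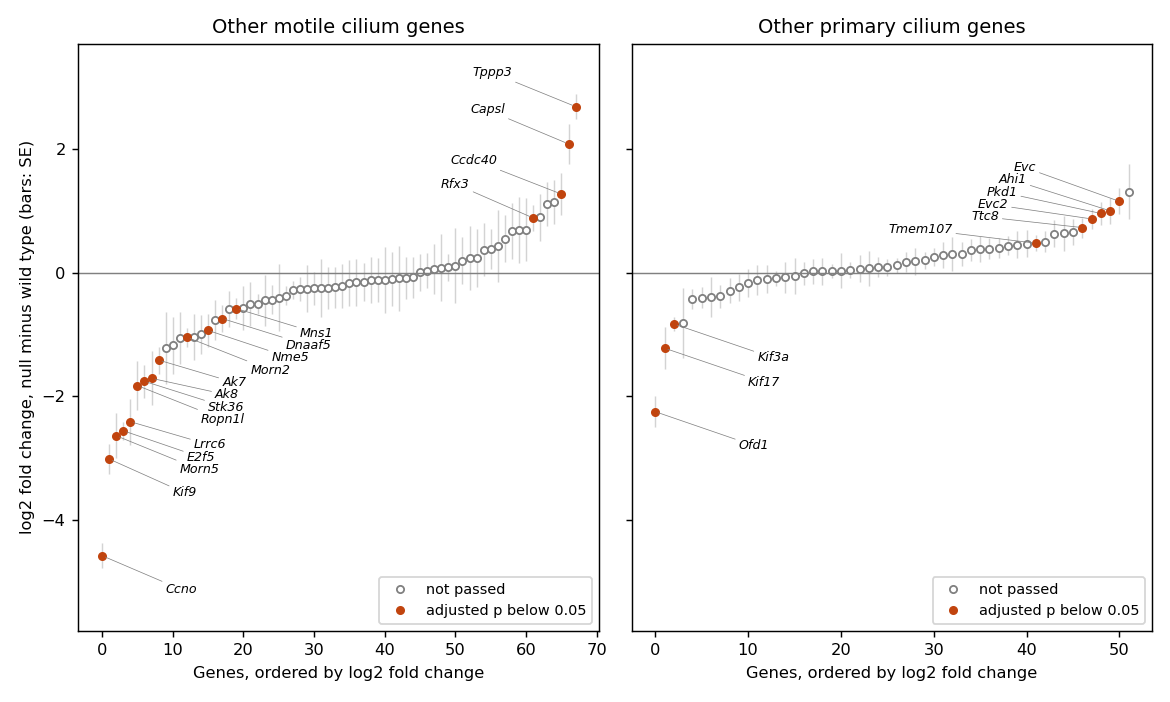
Log2 fold change, null minus wild type, with the SE of the fit, of the 68 other motile cilium genes (left) and 52 other primary cilium genes (right) measured, each list in order of fold change; filled points passed and are named. The left panel reaches from Ccno at -4.58 to Tppp3 at 2.69 with 13 filled points below 0 and 4 above, and the right panel has 3 below, led by Ofd1 at -2.25, and 6 above.

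Markers of cell types that could carry these transcripts moved between the groups as well. All 9 oocyte markers fell (median log2 fold change -4.32), and 5 of 6 granulosa markers fell (median -0.88), as did Dnah8, Dnah9, Spag1, Ift27, Bbs4 and Ccno. Of the 14 epithelial markers 12 rose and none fell (median 1.93), as did Rsph3a, Tekt2, Ift20 and Tppp3. Wfdc2 and Ovgp1, products of oviduct epithelium, had 5578 to 6412.9 and 1621.7 to 2680.4 in null and 113.6 to 142.3 and 70.1 to 86.4 in wild type arrays. Spermatid markers, which share dynein and tektin genes, were below the cutoff in both groups in 10 of 10 cases, with a summed signal of 148 to 330.7 in null and 279.6 to 475.7 in wild type arrays; Ldhc and Prm2 fell from such dim levels. The part of these cell types in the changes of cilium genes was not tested.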

How the data were processed

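Ovary RNA of 5 pools, 3 LHX8 Null and 2 wild type, was measured on oligonucleotide arrays, 1 array a pool; groups and replicate numbers came from the sample titles. The deposited values are probe set intensities on a linear scale that the authors had scaled per array (the 2% trimmed mean was 500 on every array); the submitters' processing notes name GCOS for the wild type arrays; software for the null arrays is not given in the sources used here. Detection calls did not enter, and the number of arrays limits the precision. The labels do not say that pools shared no animals or were prepared apart, so p-values measure the spread between these pools.

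Signals were put on the log2(signal + 16) scale, quantile normalised and fitted with limma 3.58.1 (lmFit, eBayes with trend, two-sided) in R 4.3.3 across all 45037 non-control probe sets, without a brightness filter, since dim probe sets may be bright in 1 group. P-values were adjusted by the Benjamini-Hochberg method. The steps were tested on simulated data. Gene symbols came from the platform's table: 34945 probe sets had 1 symbol, 932 several and 9160 none. Genes were taken by the probe set with the highest mean over all arrays. Named by rule are Foxj1, the 15 motile and 10 transport genes with the smallest p, and members whose probe sets differed in call. So are other members by role with their fold change, and the 6 smallest p of each related list with Rfx2 and Rfx3. Mcidas and Gmnc, also in the rule, had no probe set with that single symbol. Other genes were named after their values were seen. The members and lists were chosen with earlier results of these data known. Alternatives covered scaling, constant, filter, probe set choice, variance model, threshold, replicate block and each array left out. Replicate numbers were not taken to pair the arrays. The deviations of same-numbered arrays from their group means correlated at 0.0083 and 0.0078. With 2 wild type arrays those deviations mirror each other, so these values are not separate checks and cannot settle pairing. Promoters came from RefSeq (GRCm38.p6). Python 3.11.15 with matplotlib 3.10.9 drew the figures.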

Additional observations from a re-analysis of the deposited data

How the results depend on the processing

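Of 40 genes followed under the alternatives, 32 were called. Of these, 16 kept direction and call under every alternative that included their brightest probe set, and none of the 32 changed sign. Dnah9 and Spag1 were too dim for the gene-level fit. The brightest probe sets of Ift27 and Bbs4 were not in the fit without _x_at and _s_at probe sets. Among genes not called, Ift81 stood at -0.020 with median centring, and Rfx2 at 0.14 with the deposited scaling and, with each array left out in turn, between -0.26 and 0.16. Counts moved by over 1.5 times in these cases. At a threshold of 0.01, 1 motile probe set was higher and 7 lower, 1 transport probe set was higher, 2 other motile genes were higher and 8 lower, and 3 other primary cilium genes were higher. With 1 probe set a gene and the dimmest 40% of genes left out, 5 motile and 5 transport members were lower, which counts fewer probe sets, and 10 other primary cilium genes were higher. With median centring 1 transport probe set was higher and 6 other primary cilium genes were lower. Without a variance trend 1 transport probe set was higher. Over the whole array 2951 probe sets were higher and 3108 lower without the trend, beside 4811 and 4655 with it. The cause was not tested. With each array left out in turn, motile probe sets numbered 1 to 6 higher and 4 to 11 lower, transport probe sets 1 to 4 and 6 to 9, other motile genes 2 to 4 and 7 to 14, and other primary cilium genes 0 to 6 and 2 to 3. The whole array moved as well: 5094 probe sets were higher and 4934 lower without null replicate 1. These counts were 3222 and 3316 without null replicate 2, and 3423 and 3496 without null replicate 3. Fewer also passed over the whole array in each direction with either wild type replicate left out, when 1 wild type array remained. The replicate number as a block gave 6 higher and 10 lower motile and 3 higher and 8 lower transport probe sets. The block ended the calls of Dnah12 and Bbs7. The numbers are shared labels and were not taken to pair samples. With 3 against 2 arrays and many signals near background, small changes of dim cilium genes can be missed.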
